A study of Homo sapiens with 6 samples.

Results

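The genes examined here build, fold and cross-link collagen, and they were followed in sorted MCF10AT1 cells: the lysyl oxidase genes LOX, LOXL1, LOXL2 and LOXL4, the collagen chaperone genes FKBP10 and SERPINH1, the lysyl hydroxylase genes PLOD1 and PLOD2, and the prolyl 4-hydroxylase subunit genes P4HA1 and P4HA2. They were chosen by name, with earlier results of these data known. All 10 symbols were found among the 58381 gene IDs of the table. Of these, 9 reached the mean of 10 normalized counts needed for testing, as did 16047 genes in all; LOXL4 did not. MCF10AT1 descends from human breast epithelial MCF10A cells that carry mutant HRAS and had grown as a xenograft, so both groups carry that oncogene. One fraction of a fluorescence-activated sort was CD24low and CD44high, the other CD24high and CD44-positive, and 3 strand-specific libraries were made of each after ribosomal RNA (rRNA) had been removed. All cells came from this 1 line and shared 1 medium (DMEM/F12, horse serum, insulin, EGF, cholera toxin and hydrocortisone). The labels do not say whether replicates were separate cultures. The p-values therefore speak of the spread among these 6 libraries alone, and that spread may be technical. Where values are given per library, they follow the order of replicates 1, 2 and 3.

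Collagen chains are modified in the endoplasmic reticulum before they fold. Prolyl 4-hydroxylases make the hydroxyproline that keeps the triple helix stable, and lysyl hydroxylases make the hydroxylysine that later carries sugars and cross-links. SERPINH1 (HSP47) holds the folded helix, and FKBP10 (FKBP65), a prolyl isomerase, works with lysyl hydroxylase 2, the product of PLOD2. Outside the cell, the copper enzymes of the lysyl oxidase family oxidise lysines of collagen and elastin, the step that starts cross-linking. Prolyl and lysyl hydroxylases need iron, oxygen and ascorbate, and LOX, P4HA1, P4HA2 and PLOD2 are textbook targets of hypoxia-inducible factors (HIF).

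Recovered reads ran from 16691162 to 27293177 per library. Genes of rRNA type (nuclear and mitochondrial) took 1.30% to 2.27% of the reads in a first set of 3 libraries. These were CD24low replicate 3 with CD24high replicates 1 and 2. In the other 3 libraries the share was 7.07% to 10.2%. The sort marker CD24 did not overlap between the fractions (2325 to 5687 normalized counts in CD24high, 329 to 1370 in CD24low). RNA of CD44, the other sort marker, overlapped (7878 to 8993 in CD24high, 6866 to 8294 in CD24low) and was not higher in CD24low. Its difference, CD24low minus CD24high, was -0.17 in limma (SE 0.12). All 7 epithelial markers on the list, among them KRT5 with 22521 to 31907 normalized counts, were detected in each library. Limma, on log2 (normalized count + 1), called 0 of 16047 genes at an adjusted p of 0.05, with 2164 (13.5%) at an unadjusted p under 0.05. On the recovered reads edgeR called 0 genes, with 2263 (14.1%) at an unadjusted p under 0.05, and DESeq2 called 402 (2.51%). Limma was the main test, and DESeq2 and edgeR were alternatives. Differences below are CD24low minus CD24high on the limma scale, and adjusted p-values are over all 16047 genes.

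LOX, LOXL2 and both chaperone genes were called higher in the CD24low libraries by DESeq2, but not by limma or edgeR. The prolyl 4-hydroxylase genes had the smallest differences of the 9. With DESeq2, 4 of the 9 tested genes were called, all of them higher in CD24low: FKBP10, LOXL2, LOX and SERPINH1. Over all genes DESeq2 called 1.36% higher and 1.15% lower in CD24low. Neither limma nor edgeR called any of the 9 (background 0% for both), although 5 of them had an unadjusted limma p under 0.05, all with CD24low higher, where 6.34% of all genes were higher and 7.15% lower by that measure. For 6 of the 9, LOX, LOXL1, LOXL2, FKBP10, SERPINH1 and PLOD1, every CD24low library lay above every CD24high library, as did 10.2% of all tested genes; none of the 9 lay wholly lower (9.32% of all genes, and 19.5% in either direction). All 9 differences were positive (49% of all genes), and their median was 0.50, against -0.01 over all genes tested. The genes were chosen with earlier results of these data known. These counts therefore describe them and are no test of the set. In a mixed population fewer cells of a type and less RNA per cell cannot be told apart.

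**Figure D1:**
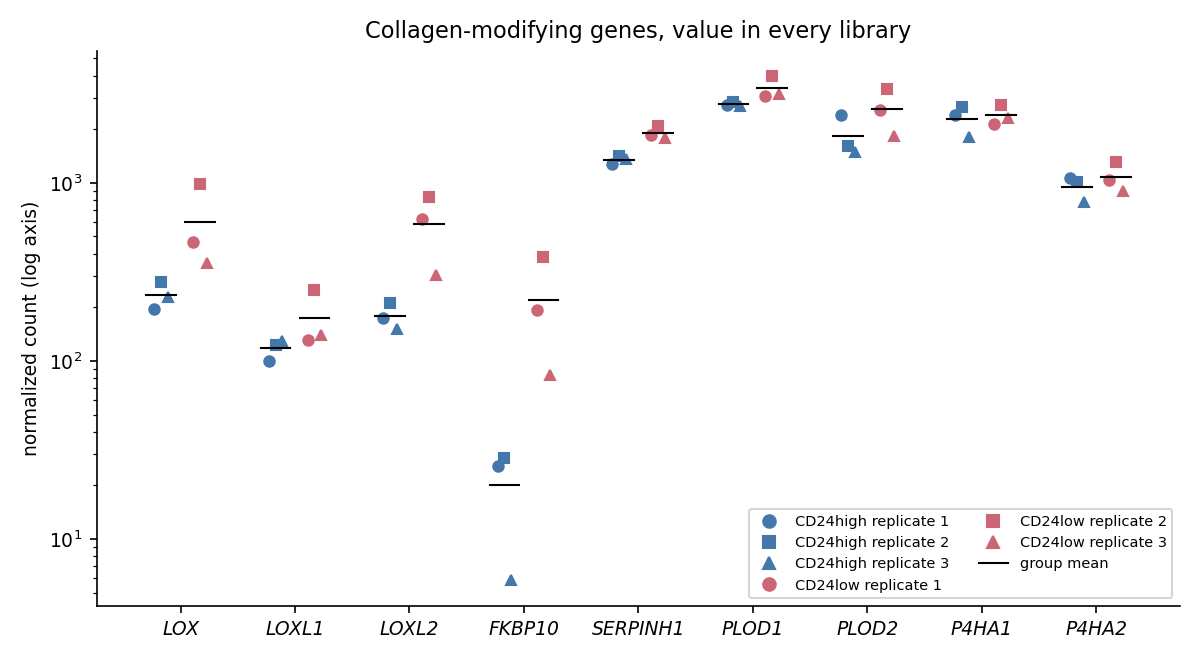
Normalized counts (log axis) of the 9 tested genes in each library, with CD24high in blue, CD24low in red, a marker shape per replicate number and a black line at the group mean; LOXL4, with 1 read in all, is not drawn. FKBP10 runs from 5.84 to 386 normalized counts, and CD24low replicate 2 is the highest library for each gene shown.

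Promoter sequences are shown for 3 genes that differ in how they were expressed: LOX, which DESeq2 called higher in CD24low; PLOD2, which no test called; and LOXL4, which was nearly silent. RefSeq's promoter table (GRCh38.p14) had 11 start sites for 8 of the 10 genes and none for FKBP10 and LOXL2. Each stretch lies within the 250 bases before a start site and stops where GENCODE 29 annotates an exon, and capitals mark the words searched. These were ACGTG or GCGTG, the core that HIF binds (ACGTG is also part of the E-box CACGTG), and TGTGGT or TGCGGT, the core that RUNX factors bind; both strands were searched, and a word on the other strand is seen as its complement, such as CACGT or ACCGCA.
LOX, chr5:122078361-122078509, minus strand: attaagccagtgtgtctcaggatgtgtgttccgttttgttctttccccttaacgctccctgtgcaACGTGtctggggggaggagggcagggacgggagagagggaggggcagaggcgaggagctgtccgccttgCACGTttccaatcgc
PLOD2, chr3:146161185-146161434, minus strand: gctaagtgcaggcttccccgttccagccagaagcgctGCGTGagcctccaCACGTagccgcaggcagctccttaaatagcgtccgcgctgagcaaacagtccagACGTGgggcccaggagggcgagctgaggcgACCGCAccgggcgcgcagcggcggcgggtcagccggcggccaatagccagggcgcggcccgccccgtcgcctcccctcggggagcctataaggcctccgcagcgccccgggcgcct
LOXL4, chr10:98268251-98268444, minus strand: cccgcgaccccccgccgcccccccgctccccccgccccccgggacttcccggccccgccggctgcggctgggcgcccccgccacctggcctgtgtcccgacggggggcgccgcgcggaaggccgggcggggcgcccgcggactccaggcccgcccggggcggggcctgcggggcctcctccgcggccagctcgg

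The HIF core was common in these promoters and in promoters at large. Over the full 250 bases it stood in 7 of the 11 member entries, against 43.2% of all 35116 entries, and in at least 1 entry of 5 of the 8 genes (LOX, P4HA1, PLOD1, PLOD2 and SERPINH1), against 47.4% of all genes. Several of those 7 entries are of LOX, and its inner windows overlap and hold the same words. The count by entry therefore includes the same sites more than once. LOX had 4 copies before its outermost start site, PLOD2 had 3 and P4HA1 had 1. PLOD2 and P4HA1 were not called higher by any test, and a link between copies and expression was not tested. The RUNX core stood in 2 of the 11 entries, those of PLOD2 and P4HA2, against 16.3% of all entries. The words TGAGTCA or TGACTCA (AP-1) and GGAATG (TEAD) were in none of the 11 entries, against 4.20% and 11.9% of all, and TATAAA was in 1, that of P4HA1, against 10.7%. GC bases made up 55.2% of the LOX window, 72.4% of the PLOD2 window and 86.4% of the LOXL4 window. These matches describe letters and do not show binding.

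LOXL2 had the larger difference of the lysyl oxidase genes called by DESeq2. LOXL2 (ENSG00000134013.15, chromosome 8, 23297189 to 23425328, minus strand, hg38), which oxidises collagen IV of basement membranes, had 173, 210.4 and 150.5 normalized counts in the CD24high libraries. The CD24low libraries held 623, 829 and 303. The groups did not overlap, and CD24low replicate 3 was the lowest of its group. The difference was 1.61 (SE 0.32), or 3.04-fold, with an adjusted p of 6.0e-06 from DESeq2, 0.095 from limma and 0.13 from edgeR. A larger difference was found in 0.972% of all genes tested. ENTPD4, a gene on the same strand, covers 2.10% of the exon bases of LOXL2 and had 812 to 981 normalized counts.

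LOX (ENSG00000113083.13, chromosome 5, 122063195 to 122078360, minus strand), the founding member of the family, had 196, 278 and 229 normalized counts in the CD24high libraries. The CD24low libraries held 467, 989 and 357. Every CD24low library was above the CD24high libraries, and CD24low replicate 2 stood far above the other libraries. The difference was 1.24 (SE 0.32), or 2.36-fold, with an adjusted p of 0.0017 from DESeq2, 0.17 from limma and 0.17 from edgeR. Without CD24low replicate 2 it was 0.81 in limma. SRFBP1, a gene on the other strand, covers 2.49% of the exon bases of LOX and had 496 to 880 normalized counts.

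LOXL1 (ENSG00000129038.15, chromosome 15, 73925989 to 73952137, plus strand), which acts in elastic fibres, had 100.4, 123 and 129 normalized counts in CD24high and 131, 249 and 140.1 in CD24low. The groups did not overlap, but CD24low replicates 1 and 3 lay close to CD24high replicates 2 and 3. Its difference of 0.50 (SE 0.25) was not called (adjusted p 0.41 from limma, 0.37 from DESeq2) and was 0.21 without CD24low replicate 2. An antisense gene, LOXL1-AS1, covers 9.21% of its exon bases and had 58.8 to 84.6 normalized counts; whether strand was used in counting is not given in the sources used here.

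LOXL4 (ENSG00000138131.3, chromosome 10, 98247690 to 98268250, minus strand) had 0 reads in 5 libraries and 1 read in CD24low replicate 2. The floor of 3 reads is worth 2.49 normalized counts in 1 library and up to 4.38 in another, and covers counting error alone, so no fold is given. LOXL3, the remaining gene of the family, had 29.04, 42.5 and 21.9 normalized counts in CD24high and 30.0, 12.4 and 38.2 in CD24low, with a difference of -0.29 (SE 0.43, limma adjusted p = 0.80). In CD24low replicate 2, where LOX, LOXL1 and LOXL2 were at their highest, LOXL3 was at its lowest. HTRA2, a gene on the other strand, covers 14.3% of the exon bases of LOXL3, so its count is uncertain.

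Per length, the summed level of the family was higher in every CD24low library, with a larger share from LOXL2 and a smaller one from LOXL1. Summed over the 5 genes, the level was 100.0, 131 and 108 normalized counts per kb of exon in CD24high and 236, 395 and 165 in CD24low, with no overlap. LOXL2 made up 27.7% ± 3.04 (SD, n = 3) of that sum in CD24high and 38.4% ± 7.12 in CD24low, and LOXL1 28.8% ± 3.499 and 18.7% ± 4.22. For both genes the shares did not overlap between the groups. LOX held 37.3% ± 1.71 and 39.9% ± 4.80, and its shares overlapped. Divided by the longest transcript instead of all exons, the shares of LOXL2 were 34.1% ± 3.46 and 46.2% ± 7.58.

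**Figure D2:**
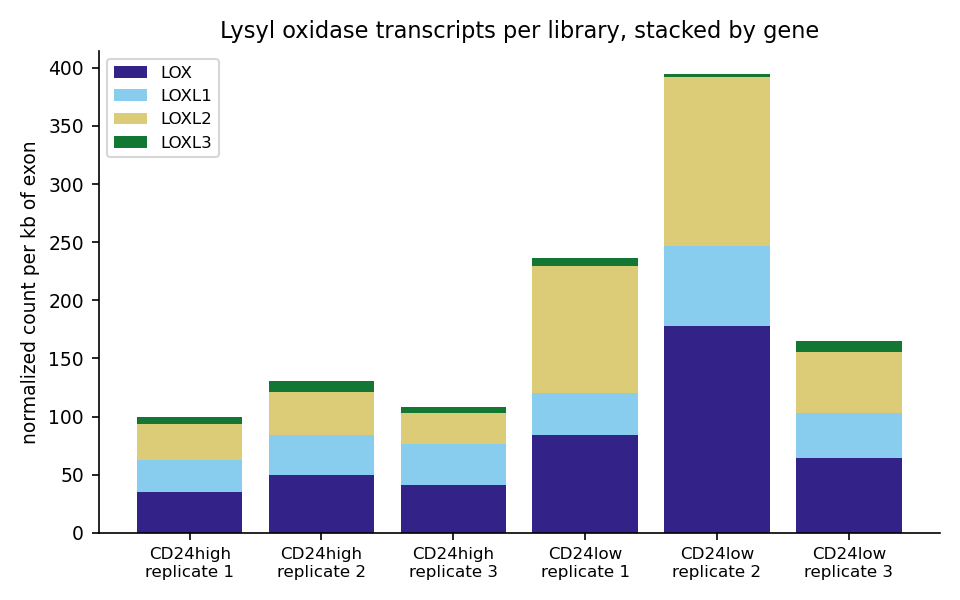
Normalized counts per kb of exon of LOX, LOXL1, LOXL2 and LOXL3, stacked for each library (LOXL4 would not be visible). The 3 CD24low libraries stand at 165 to 395, above the CD24high libraries at 100.0 to 131.

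Ratios of 2 genes within a library were compared as well. The log2 ratio of LOXL2 to LOXL1 was 0.59 ± 0.32 (SD, n = 3) in CD24high and 1.70 ± 0.57 in CD24low, and that of LOX to LOXL1 was 0.99 ± 0.17 and 1.72 ± 0.33. For each ratio the groups did not overlap, and the exact permutation test (two-sided) gave p = 0.1. With 3 libraries a group no lower p is possible. Adjusted over the 5 ratios computed, which were chosen after the values had been seen, that exact p is 0.17.

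FKBP10 had the largest difference of the 9 tested genes, from the lowest CD24high mean among them. FKBP10 (ENSG00000141756.18, chromosome 17, 41812680 to 41823217, plus strand) had 25.7, 28.6 and 5.84 normalized counts in the CD24high libraries. The CD24low libraries held 193, 386 and 83.3. CD24high replicate 3, the shallowest library, held only 4 reads of it, and each CD24low library held 85 or more. The difference was 3.40 (SE 0.63), or 10.5-fold, with an adjusted p of 0.0045 from DESeq2, 0.088 from limma and 0.12 from edgeR. It ranked in place 23 of the 16047 genes, and was the only one of the 9 with a difference above 2, as 0.723% of all genes had. Without CD24high replicate 3 it was 2.72, and without CD24low replicate 3 it was 3.96 with a limma adjusted p of 0.014.

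SERPINH1, the other chaperone, differed less in size but with a small spread. SERPINH1 (ENSG00000149257.13, chromosome 11, 75562056 to 75572783, plus strand) had 1273, 1409 and 1365 normalized counts in CD24high and 1861, 2092 and 1778 in CD24low. All CD24low libraries lay above all CD24high libraries, by a gap larger than the range of either group. The difference was 0.50 (SE 0.11), or 1.41-fold, with an adjusted p of 0.0094 from DESeq2, 0.12 from limma and 0.15 from edgeR. With 1 library left out it stayed between 0.43 and 0.55. The log2 ratio of FKBP10 to SERPINH1 was -6.37 ± 1.29 (SD, n = 3) in CD24high and -3.37 ± 0.99 in CD24low, again without overlap (exact permutation p = 0.1, adjusted 0.17). Per kb of exon, FKBP10 made up 2.14% ± 1.31 of the pair's sum in CD24high and 13.7% ± 7.46 in CD24low.

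Neither lysyl hydroxylase gene was called, although the PLOD2 difference was about as large as those of SERPINH1 and LOXL1. PLOD1 (ENSG00000083444.16, chromosome 1, 11934205 to 11975538, plus strand), whose enzyme acts on lysines of the helix, had 2730.1, 2862 and 2718 normalized counts in CD24high and 3085, 3988 and 3162 in CD24low. The groups did not overlap, and the difference of 0.29 (SE 0.12) was not called (adjusted p 0.34 from limma, 0.31 from DESeq2). It was 0.17 without CD24low replicate 2. PLOD2 (ENSG00000152952.11, chromosome 3, 146069440 to 146163653, minus strand), whose enzyme acts on lysines of the telopeptides, had 2417, 1615 and 1487 and then 2559, 3379 and 1839.5. CD24high replicate 1 lay above CD24low replicate 3, so the groups overlapped. The PLOD2 difference was 0.48 (SE 0.23, adjusted p 0.40 from limma and 0.30 from DESeq2), and it was 0.27 without CD24low replicate 2. The log2 ratio of PLOD2 to PLOD1 was -0.62 ± 0.39 (SD, n = 3) and -0.43 ± 0.30, with overlapping groups (exact permutation p = 0.7). PLOD3, the third lysyl hydroxylase gene, had a difference of 0.07 (SE 0.10).

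The catalytic subunit genes P4HA1 and P4HA2 overlapped between the groups, while their partner subunit gene P4HB did not. P4HA1 (ENSG00000122884.12, chromosome 10, 73007217 to 73096974, minus strand), a catalytic alpha subunit, had 2414, 2655 and 1816 normalized counts in CD24high and 2134, 2736 and 2312 in CD24low. P4HA2 (ENSG00000072682.18, chromosome 5, 132191838 to 132295315, minus strand), the other catalytic subunit expressed here, had 1066, 1015 and 777 and then 1039, 1303 and 901. Their differences were 0.07 (SE 0.16) and 0.18 (SE 0.17), with limma adjusted p-values of 0.88 and 0.68 and DESeq2 adjusted p-values of 0.94 and 0.77. The P4HA1 difference turned to -0.09 without CD24high replicate 3 and to -0.03 without CD24low replicate 2. That of P4HA2 was 0.04 without either of these libraries in turn, and 0.30 without CD24low replicate 3. P4HA3, a further alpha subunit gene, had at most 1.91 normalized counts in any library. The log2 ratio of P4HA2 to P4HA1 was -1.26 ± 0.11 (SD, n = 3) and -1.16 ± 0.18 (exact permutation p = 0.4).

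**Figure D3:**
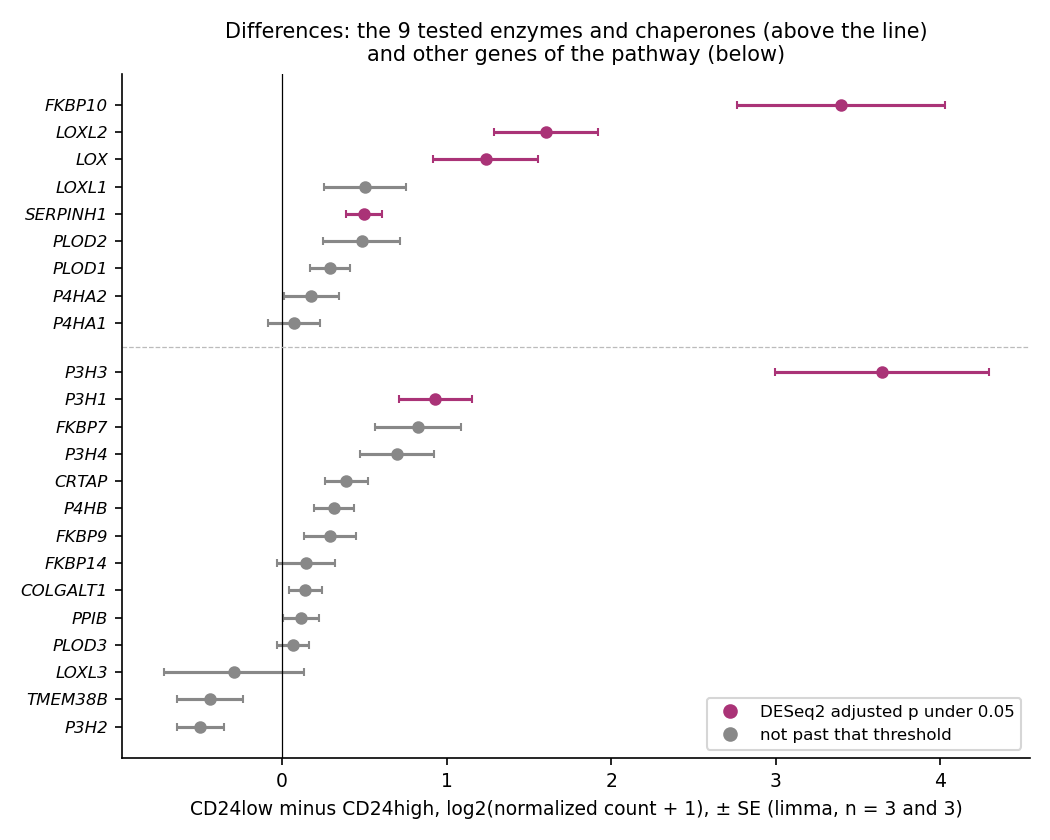
Difference between CD24low and CD24high on the log2 (normalized count + 1) scale with its SE for the 9 tested genes (above the dashed line) and 14 other tested pathway genes (below), in purple where DESeq2's adjusted p was under 0.05. FKBP10 (3.40), LOXL2 (1.61), LOX (1.24) and SERPINH1 (0.50) are purple above the line, P3H3 (3.64) and P3H1 (0.93) below it.

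Per length, the order of the genes was led by the hydroxylases in both fractions. In CD24high cells P4HA1 stood at 742 ± 140 (SD, n = 3) normalized counts per kb of exon, followed by PLOD1 at 521 ± 15.0, PLOD2 at 241 ± 65.9, SERPINH1 at 215 ± 11.03 and P4HA2 at 112 ± 18.1. The secreted enzymes came next, with LOX at 42.2 ± 7.41, LOXL1 at 32.3 ± 4.13 and LOXL2 at 31.2 ± 5.30, then FKBP10 at 4.70 ± 2.90 and LOXL4 at 0. Neighbours PLOD2 and SERPINH1, LOX and LOXL1, and LOXL1 and LOXL2 overlapped between libraries. Within each CD24high library LOX stood above LOXL1. The order of PLOD2 and SERPINH1, and that of LOXL1 and LOXL2, changed from library to library. In CD24low cells, per kb of exon, LOX stood at 109 ± 60.9 and LOXL2 at 103 ± 46.5, close to P4HA2 at 127 ± 24.0. FKBP10, at 51.7 ± 35.9, stood beside LOXL1, at 47.7 ± 18.1, and these overlapped. With the longest transcript as the length, PLOD1 led P4HA1 and LOXL2 led LOX in both groups. P4HA2 was then no longer close to them in CD24low, at 323 ± 60.9 against 165 ± 74.7 for LOXL2 and 118 ± 66.2 for LOX.

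The libraries of 1 group differed, and the genes differed with them. CD24low replicate 2 was the highest of the 6 libraries for all 9 tested genes, as it was for 23.7% of all genes tested. In 6 of the 9, FKBP10, LOX, LOXL2, P4HA2, PLOD2 and SERPINH1, the CD24low libraries stood in the order replicate 2, replicate 1, replicate 3, as for 21.5% of all genes. CD24, with 329, 588 and 1370 normalized counts in CD24low replicates 2, 1 and 3, had the opposite order, which 24.7% of all genes had. CD24low replicate 3 was the lowest of its group for the same 6 genes (33% of all genes). FKBP10 was 4.63-fold, LOX 2.77-fold and LOXL2 2.74-fold higher in CD24low replicate 2 than in CD24low replicate 3, and P4HA1 and SERPINH1 each 1.18-fold.

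The differences varied with the share of rRNA reads. Among libraries of low share (CD24low replicate 3 against CD24high replicates 1 and 2), FKBP10 differed by 1.58, LOXL2 by 0.66, LOX by 0.61 and SERPINH1 by 0.41. Among those of high share (CD24low replicates 1 and 2 against CD24high replicate 3) the same genes differed by 5.32, 2.25, 1.56 and 0.53. PLOD2, P4HA1 and P4HA2 changed sign, from -0.10, -0.13 and -0.21 at low share to 0.98, 0.41 and 0.58 at high share. In all 9 the difference was larger at high share, as in 51.2% of all genes. Each side of these comparisons that holds 1 library rests on CD24low replicate 3 or CD24high replicate 3, so rRNA share and these libraries cannot be told apart, and no test was made. With the rRNA share as a covariate in limma, FKBP10 differed by 3.51, LOXL2 by 1.52, LOX by 1.13 and SERPINH1 by 0.48, with adjusted p-values of 0.21, 0.21, 0.27 and 0.21.

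**Figure D4:**
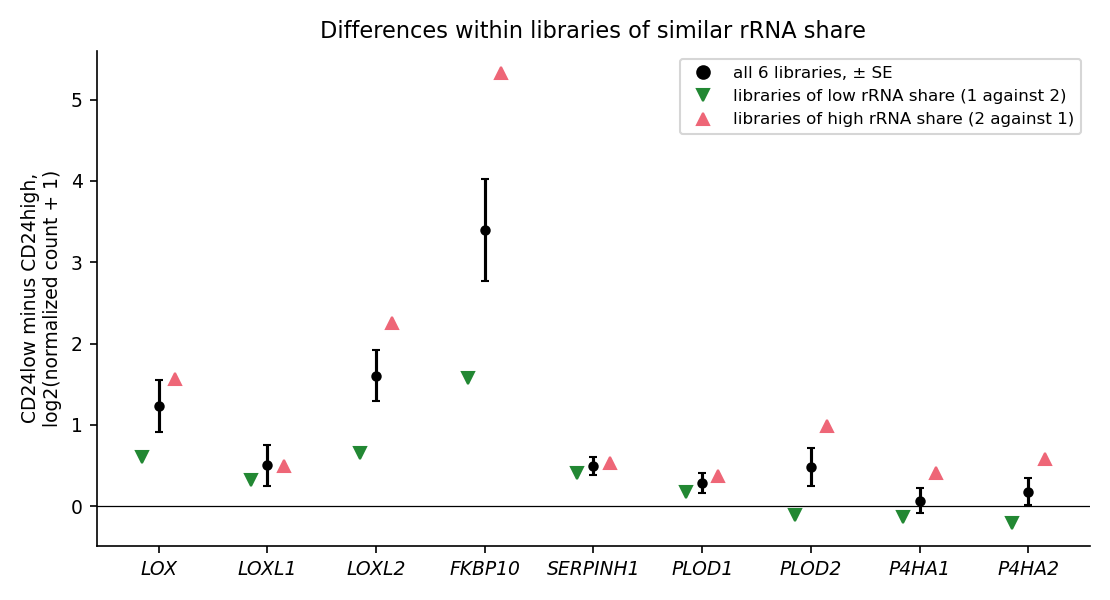
Difference of each tested gene on the log2 (normalized count + 1) scale in all 6 libraries (black, ± SE), among libraries of low rRNA share (green) and among those of high share (red). FKBP10 spreads from 1.58 to 5.32, SERPINH1 stays between 0.41 and 0.53, and PLOD2, P4HA1 and P4HA2 lie below 0 at low share.

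Among the other genes that hydroxylate, glycosylate and fold collagen, only prolyl 3-hydroxylase genes were called by DESeq2. Of 15 listed, 13 were tested, with a median of 0.29. DESeq2 called 2 higher (P3H3 and P3H1) and 0 lower. Limma called 0, with 6 higher and 1 lower at an unadjusted p under 0.05. For this and the lists below, DESeq2 called 1.36% of all genes higher and 1.15% lower. At an unadjusted limma p under 0.05 these shares were 6.34% and 7.15%. P3H3, which forms a complex with lysyl hydroxylase 1, had 0, 0.988 and 1.46 normalized counts in CD24high and 19.4, 46.8 and 8.82 in CD24low. Its 80 reads in CD24low against 2 in CD24high gave a ratio of 36.2 after scaling, with a 95% exact counting interval of 9.71 to 304 that leaves out the spread between libraries; DESeq2's adjusted p was 0.0040 and limma's 0.078. P3H4, its partner in that complex, had 129, 209 and 168 and then 227, 351 and 244 (difference 0.70, SE 0.22, DESeq2 adjusted p = 0.11). P3H4 is also the neighbour of FKBP10, on the opposite strand with 75 bases between the annotated genes.

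P3H1, which works with CRTAP and cyclophilin B, had 231, 315 and 276 normalized counts in CD24high and 498, 727 and 387 in CD24low. Its difference was 0.93 (SE 0.22), with an adjusted p of 0.0048 from DESeq2 and 0.15 from limma. CRTAP differed by 0.39 (SE 0.13, DESeq2 adjusted p = 0.14) and PPIB, which encodes cyclophilin B, by 0.12 (SE 0.11, DESeq2 adjusted p = 0.80). P3H2, linked to basement membrane collagen IV, was on the other side, with 1469.6, 1321 and 1360.3 against 1039, 792 and 1141. The P3H2 groups did not overlap, and its difference of -0.50 (SE 0.14) had an adjusted p of 0.069 from DESeq2 and 0.20 from limma. FKBP7, another isomerase of the reticulum, had 60.6, 40.5 and 42.4 against 81.1, 111 and 66.6 (0.83, SE 0.26, DESeq2 adjusted p = 0.16). P4HB had 8427, 8739 and 8055 against 10648, 11698 and 9195 and differed by 0.32 (SE 0.12, DESeq2 adjusted p = 0.19). COLGALT2 and P4HA3 lay below the filter.

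No gene of collagen export and propeptide cleavage was called. Of 18 listed, 13 were tested, with a median of 0.09. DESeq2 and limma called 0, near the shares over all genes of 2.51% for DESeq2 and 0% for limma. At an unadjusted limma p under 0.05 there were 1 higher and 2 lower (6.34% and 7.15% of all genes). MIA2, which helps load collagen at exit sites of the reticulum, differed by -0.38 (SE 0.11), TLL1, a procollagen C-proteinase, by -1.05 (SE 0.38), the retrieval receptor gene KDELR1 by 0.30 (SE 0.11) and the coat gene SEC24D by 0.40 (SE 0.20).

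The substrates of these enzymes were mixed. Of 15 collagen chain genes, 11 were tested, with a median of 0.35 and, at an unadjusted limma p under 0.05, 3 higher and 1 lower. DESeq2 called COL8A1 higher (0.76, SE 0.19, adjusted p 0.0066) and COL17A1, a transmembrane collagen of hemidesmosomes, lower (-1.02, SE 0.20, adjusted p 0.00018). The collagen VI genes COL6A3 (1.16, SE 0.36) and COL6A1 (1.06, SE 0.40) had adjusted p-values of 0.057 and 0.066 from DESeq2. Fibrillar chain genes ranged widely. COL1A1 had 18.3, 29.6 and 38.0 normalized counts in CD24high and 58.2, 109.8 and 27.4 in CD24low, with overlapping groups (1.01, SE 0.47, DESeq2 adjusted p = 0.21), and COL5A2 had 76.4 to 102 over all libraries (0.09, SE 0.19). COL1A2 had at most 0.830 and COL3A1 at most 9.55 normalized counts. Of 20 elastic fibre genes and partners of the lysyl oxidases, 13 were tested, with a median of 0.51; DESeq2 called 6 higher and 0 lower, and limma 0, with 7 higher and 1 lower at an unadjusted p under 0.05. Among the 6 were POSTN, whose product binds collagen and BMP1 (2.80, SE 0.43), FN1, encoding fibronectin (2.57, SE 0.42), LTBP1 (1.79, SE 0.36) and FBN2, encoding a fibrillin (1.15, SE 0.22). The gene on the lower side was MFAP5, which encodes a microfibril protein, with 37.3, 5.93 and 36.5 normalized counts against 3.53, 0 and 9.80 and overlapping groups (-2.56, SE 0.91, DESeq2 adjusted p = 0.094). ELN, which encodes elastin, the other main substrate, had 0 reads in 5 libraries and 1.46 normalized counts, worth 1 read, in CD24high replicate 3.

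No gene of the HIF response list was called by limma, DESeq2 or edgeR with group as the only term. Of 20 listed, all were tested, with a median of 0.24. DESeq2 and limma called 0, near the shares over all genes of 2.51% for DESeq2 and 0% for limma. Of the 20, 17 were positive (49% of all genes), and 3 had an unadjusted limma p under 0.05 (13.5% of all genes). CA9, a carbonic anhydrase, had 1.66, 19.8 and 7.31 normalized counts in CD24high and 15.0, 171 and 48.0 in CD24low, with overlapping groups (2.73, SE 0.89, DESeq2 adjusted p = 0.20). HIF1A itself had 5531, 5471 and 4516 and then 6515, 9689 and 6136 (0.50, SE 0.18, DESeq2 adjusted p = 0.099). BNIP3, a mitophagy receptor gene, and KDM3A, a histone demethylase gene, differed by 0.57 (SE 0.23) and 0.44 (SE 0.21). Of the 7 tested genes of ascorbate, iron and copper supply, DESeq2 called only FTL, a ferritin chain gene, higher (0.77, SE 0.22, adjusted p 0.022), and the median was -0.07.

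Markers of fibroblasts and other mesenchymal cells were mixed, with some higher, 1 lower and others near 0. Summed over all 10, the level was 2328 to 4825 normalized counts in CD24high and 6792 to 18829 in CD24low, most of it from VIM, which encodes vimentin (1.98, SE 0.41, DESeq2 adjusted p = 0.0090). DESeq2 called 2 of the 5 tested markers higher, VIM and TAGLN, and 1 lower, FAP (-0.54, SE 0.15, adjusted p 0.036). DCN, which encodes the proteoglycan decorin, had the largest difference on the list, with 146, 325 and 10.2 normalized counts in CD24high and 985, 3704 and 846 in CD24low. The DCN groups did not overlap, and the difference of 4.16 (SE 1.05) had an adjusted p of 0.16 from limma and 0.11 from DESeq2; it was 2.73 without CD24high replicate 3. The fibroblast markers LUM and PDPN were at 0 in all libraries, PDGFRA at 0 in 5 and at 3.82 normalized counts in CD24low replicate 2, and THY1 at 0.988 or less. Summed over 8 endothelial and blood cell markers the groups overlapped (150.2 to 445 and 175 to 460.4). Most of that sum came from PECAM1, with 85.5, 393 and 142 normalized counts in CD24high and 105, 340 and 254 in CD24low. CD68 had 61.4, 42.5 and 49.7 in CD24high and 68.8, 117 and 50.0 in CD24low. HBB was at 0 in all libraries and PTPRC at 1.98 or less. The 7 epithelial markers all had negative differences, with a median of -0.59, and DESeq2 called 2 of them lower, TP63 (-1.29, SE 0.20) and CDH1 (-0.90, SE 0.23). The part that cell composition has in the differences of the collagen-modifying genes was not tested.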

How the data were processed

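Per gene and library, the deposited signal is a read count scaled by a DESeq2 size factor by the authors. The submitters' processing notes list STAR 2.5.2, R 3.5.0 and hg38; for the read counter, strand setting and annotation, the sources used here give nothing. The values of a library were multiples of its smallest value, which gave back whole reads (100% of values whole within 0.1 reads; 1 read was worth 0.83 to 1.46 normalized counts). IDs were matched without version to GENCODE 29 (58261 of 58381).

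Limma 3.58.1 with a mean-variance trend was fitted to log2 (normalized count + 1) of 16047 genes (mean 10 or more), two-sided, with Benjamini-Hochberg adjustment and a threshold of 0.05. The pseudocount understates changes of low genes. DESeq2 1.42.0 and edgeR 4.0.16 (quasi-likelihood, TMM) were run on the recovered reads. Computation used R 4.3.3, Python 3.11.15, pandas 2.3.3, numpy 2.4.6, scipy 1.17.1 and matplotlib 3.10.9, and the fits were tested on simulated data. Groups and replicate numbers came from the sample titles.

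Members and lists were chosen with earlier results of these data known. Named are the 10 members, up to 4 tested genes per list with the smallest limma p, list genes at or near 0, and for LOX and FKBP10 the 5 likest genes with a mean of at least 100; P3H4, CRTAP, PPIB, PLOD3, P4HB, COL1A1, COL5A2, MFAP5 and the 5 ratios were added after values were seen. Between members, 0 of the 50-base words of their annotated transcripts were shared, and at most 1.42% of a member's words were shared with another gene. Alternatives were other pseudocounts, filters, scalings and tests, an rRNA covariate, a replicate block, and libraries left out.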

Additional observations from a re-analysis of the deposited data

How the results depend on the processing

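Of 162 values of the 9 tested genes under 18 alternatives, 144 kept their sign and stayed above an adjusted p of 0.05 in the test used, 15 kept their sign and fell below it, and 3, all of P4HA1, changed sign. The P4HA1 difference ran from -0.088 to 0.185 with 1 library left out (-0.088 leaving out CD24high replicate 3, -0.03 leaving out CD24low replicate 2) and was -0.067 without both libraries numbered 3. Those 15 belong to FKBP10, LOXL2, LOX and SERPINH1. The count of all genes called, 0 in limma, was 402 with DESeq2, 164 (2 members) with no filter on low values, 103 (2 members) without both libraries numbered 3, and 0 to 366 (0 to 3 members) with 1 library left out, where only leaving out CD24low replicate 3 gave calls. DESeq2 called 4 members. With the replicate block in limma 716 genes and 4 members were called. Same-numbered libraries correlated by 0.27, 0.30 and 0.05 in their deviations from the group means, and differently numbered ones by -0.26 to 0.08. CD24low replicate 3 correlated better with CD24high replicate 1 (0.08), while CD24high replicate 3 correlated best with CD24low replicate 3. The labels do not say that a shared number marks a shared culture. Whether the samples are paired was left undecided, and the block was kept as an alternative. Of the named list genes that limma and DESeq2 did not call with group as the only term, the block called CA9 (adjusted p 0.00031), DCN (0.00012), COL6A3 (0.0100), COL6A1 (0.031), EPCAM (0.036) and BNIP3 (0.038). The median of all genes moved by less than 0.1 under each scaling. Among named list genes, the difference of LOXL3 ran from -0.607 to 0.17 with 1 library left out, changing sign when CD24low replicate 2 was left out, and that of PECAM1 from -0.18 to 0.915, changing sign when CD24high replicate 1 (-0.18) or CD24low replicate 2 (-0.05) was left out. The lowest depth, in CD24high replicate 3, left 4 reads of FKBP10 there.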

Other observations

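The genes whose values over the 6 libraries were most like those of LOX, by Pearson correlation of log2 (normalized count + 1) among 11469 genes with a mean of at least 100, were TNFRSF1A, which encodes a TNF receptor (r = 0.999, difference 0.66), LRP1, an endocytic receptor gene (0.999, 2.25), RXRB (0.997, 0.32), OGFR (0.997, 0.28) and MXD4 (0.996, 1.73). Those most like FKBP10 were CERK, encoding ceramide kinase (0.998, 0.59), EMP3 (0.996, 1.69), WNT5A, a secreted ligand gene (0.995, 3.59), CUTA (0.995, 0.41) and WRAP53 (0.993, 0.27). The correlations are descriptions over 6 libraries that share their groups, and genes with very different sizes of difference reach the same likeness. LRP1 had 83.2 normalized counts on average in CD24high and 535 in CD24low, and WNT5A had 36.0 and 436.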
